A study of Homo sapiens with 9 samples.

Results

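The genes described here are 28 genes of cholesterol synthesis and of its control by the transcription factor SREBP2, found by name among the 58735 genes of the deposited expression table. RNA was measured by bulk sequencing in 9 libraries of H1299, an established human lung cancer cell line. KO2 and KO1 are monoclonal lines in which the gene BCKDK was knocked out by CRISPR editing and which were isolated by limiting dilution. Vector cells carry the lentiCRISPR v2 plasmid, are labelled wild type for BCKDK, and are not described as a single clone. Each group has 3 libraries, and no drug treatment is named for any of them. For knockout in general the unit is therefore the clone, with 2 clones, and a difference between a clone and Vector can also hold what sets 1 clone apart from the uncloned population. The title of the study places BCKDK, a kinase that switches off the breakdown of branched-chain amino acids, beside MYC, HK2, glycolysis and Trametinib resistance in lung cancer. It does not name cholesterol.

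Cells make cholesterol from acetyl-CoA through mevalonate, the isoprenoid diphosphates, squalene and lanosterol. SREBP2 is made as a membrane protein of the endoplasmic reticulum. When sterols are low, its escort SCAP carries it to the Golgi, where the proteases encoded by MBTPS1 and MBTPS2 release the part that enters the nucleus and binds sterol response elements in the promoters of the pathway's enzymes. When sterols are high, INSIG proteins hold SCAP back, and INSIG1 is itself a SREBP2 target, so that its mRNA is often read as part of the same response. The protein cleavage itself is not measured by RNA sequencing.

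The FPKM values, in which read numbers are divided by exon length and by a library size that follows median-of-ratios factors and not the read total, rest on 16002212 to 17090445 reads per library. The members had between 81 reads (CYP51A1 in Vector replicate 2) and 6181 reads (SREBF2 in Vector replicate 3). BCKDK itself stood at 0.628, 0.576 and 0.287 FPKM in KO2, at 1.91, 2.06 and 1.67 FPKM in KO1, against 13.7, 12.9 and 17.5 FPKM in Vector, so its level went with the labels in all 9 libraries. Markers of other cell types (13 genes of blood, endothelium, fat, liver and muscle) summed to 0.243 to 0.423 FPKM in KO2, 0.308 to 0.414 FPKM in KO1 and 0.12 to 0.289 FPKM in Vector. Of these, CD3E and HBB were at 0 in all 9. Of the line's own markers, VIM lay between 454 and 817 FPKM, and KRT8 lay at 112 to 130 FPKM in KO1, against 15.4 to 17.6 FPKM in KO2 and 13.5 to 20.4 FPKM in Vector. KRT18 lay at 314 to 359 FPKM in KO1, 86.4 to 103 FPKM in KO2 and 53.2 to 71.2 FPKM in Vector. It was higher in KO2 than in Vector by 0.54 on the log2 scale (limma adjusted p = 0.0165). Over all genes, replicate 3 of KO2 and replicate 3 of Vector deviated from the rest of their groups, and their effect is given beside the results they touch. In bulk RNA, fewer cells that express a gene and less of its RNA per cell cannot be told apart.

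Most of the 28 genes were lower in KO1 than in Vector, whereas in KO2 the share of members called was close to the share of all genes called. Against Vector, 16 of the 28 members fell in KO1 and 1 rose, at a limma adjusted p under 0.05, while over all 16426 genes fitted 16.7% fell and 17.4% rose (34.1% in either direction). In KO2, 6 members fell and 2 rose against Vector, with 15% and 12.9% of all genes (27.9% in either direction). The median change of the 28 members was -0.58 in KO1, beside a median of 0.01 over all genes, and -0.12 in KO2, beside 0. All changes are log2 differences on the log2(FPKM + 1) scale, which understates the change of low genes. Both comparisons use the same Vector libraries, so their values are not independent of each other. Set directly against KO1, 14 members were higher in KO2 and 1 was lower, where 14.5% of all genes were higher and 16.4% lower (30.9% in either direction), and the median difference was 0.37 beside -0.02 over all genes. With every library scaled to the same summed FPKM, the split of calls over all genes moved to 2104 higher and 3244 lower in KO1 against Vector, and to 2894 higher and 1839 lower in KO2 against KO1. The median of all genes then shifted by at most 0.09.

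**Figure D1:**
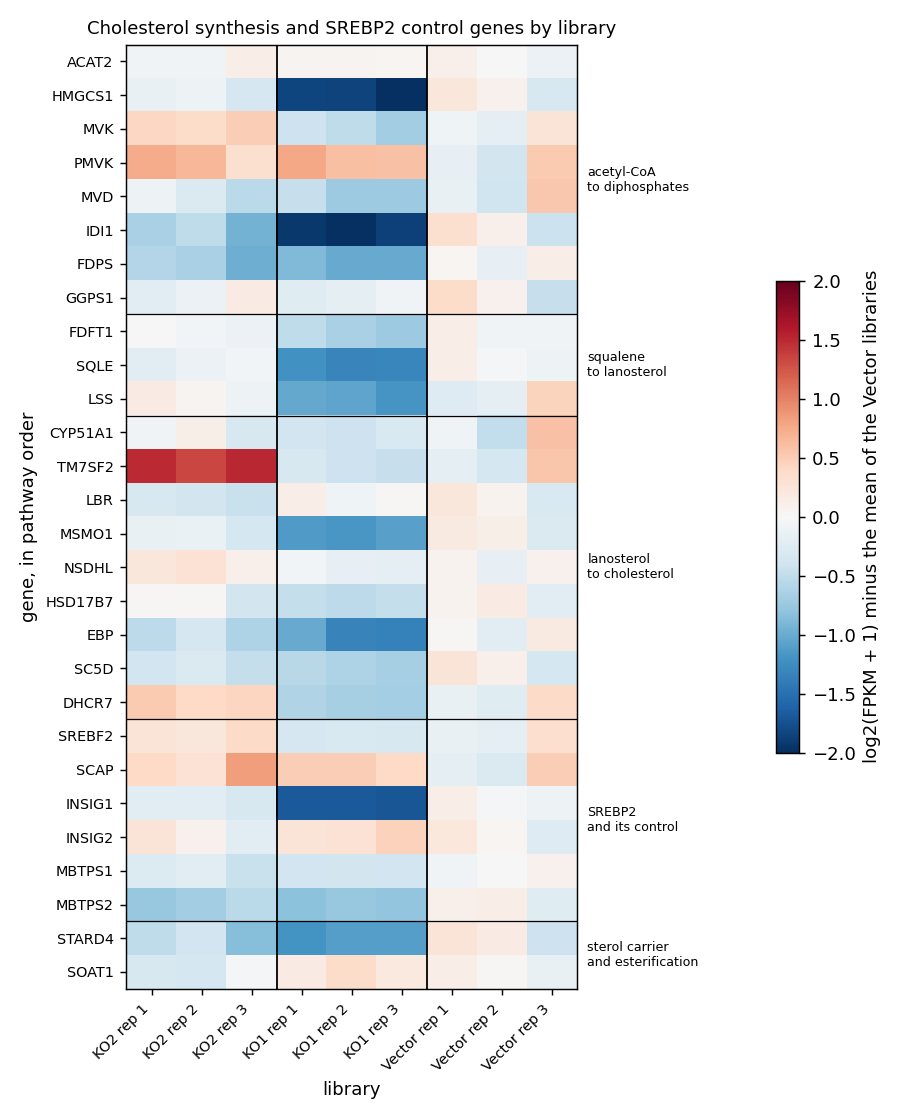
Each cell gives the log2(FPKM + 1) of 1 gene in 1 library minus the mean of the 3 Vector libraries, with genes in pathway order and libraries in columns. The KO1 columns are blue over most rows, deepest for HMGCS1, IDI1 and INSIG1 (-1.91, -1.96 and -1.69 as group differences), TM7SF2 is red in KO2 (1.45), and Vector replicate 3 differs in shade from the other Vector columns in many rows.

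Separation between libraries followed the same pattern. In KO1, 18 of the 28 members had all 3 libraries below all 3 Vector libraries and 3 had all above, where 24.1% and 26% of all genes did so. In KO2, 7 members were wholly below Vector and 4 wholly above, with 20.7% and 18.3% of all genes. Between the clones, 16 members had all KO2 libraries above all KO1 libraries and 3 had all below, with 24.8% and 28.8% of all genes. The median of the members' log2 levels, relative to the Vector mean, was -0.12, -0.11 and -0.28 in the KO2 libraries, -0.47, -0.57 and -0.67 in the KO1 libraries and 0.08, -0.04 and -0.08 in the Vector libraries. Every KO1 library thus lay below every KO2 and every Vector library on this measure, whereas the KO2 libraries lay closer to Vector.

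The promoters of 4 members are shown because they hold the letters of a sterol response element core and because their genes cover the range from the most lowered member to a member with no call. They were taken from RefSeq windows of build GRCh38.p14 (250 bases before and 50 after each annotated start), and 25 of the 28 members had a window. Capitals mark CACNCCAC, a core of sterol response elements, and CCAAT, the motif of the cofactor NF-Y, or their reverse complements GTGGNGTG and ATTGG. The IDI1 window is chr10:1048837-1049136 on the minus strand, and there CCAAT and ATTGG overlap in 1 run of capitals. The INSIG1 window is chr7:155297628-155297927, the SC5D window chr11:121292521-121292820 and the SREBF2 window chr22:41832855-41833154, all on the plus strand.
IDI1: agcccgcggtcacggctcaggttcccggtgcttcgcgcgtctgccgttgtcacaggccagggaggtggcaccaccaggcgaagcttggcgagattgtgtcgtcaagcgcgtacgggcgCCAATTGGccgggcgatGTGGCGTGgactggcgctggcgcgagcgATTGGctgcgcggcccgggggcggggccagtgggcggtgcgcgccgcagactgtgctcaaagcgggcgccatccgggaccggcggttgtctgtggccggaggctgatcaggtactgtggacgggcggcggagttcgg
INSIG1: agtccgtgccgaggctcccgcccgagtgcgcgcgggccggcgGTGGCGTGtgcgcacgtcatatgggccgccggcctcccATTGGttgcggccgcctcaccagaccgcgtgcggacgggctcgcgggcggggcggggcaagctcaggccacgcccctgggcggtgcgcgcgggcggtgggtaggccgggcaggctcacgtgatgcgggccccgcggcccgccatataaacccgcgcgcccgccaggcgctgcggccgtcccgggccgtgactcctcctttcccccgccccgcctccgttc
SC5D: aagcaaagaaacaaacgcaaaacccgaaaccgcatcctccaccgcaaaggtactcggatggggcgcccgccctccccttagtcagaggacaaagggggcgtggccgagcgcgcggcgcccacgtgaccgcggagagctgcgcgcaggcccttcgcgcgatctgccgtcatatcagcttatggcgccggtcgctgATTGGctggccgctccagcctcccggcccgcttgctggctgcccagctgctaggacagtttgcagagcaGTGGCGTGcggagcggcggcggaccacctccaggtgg
SREBF2: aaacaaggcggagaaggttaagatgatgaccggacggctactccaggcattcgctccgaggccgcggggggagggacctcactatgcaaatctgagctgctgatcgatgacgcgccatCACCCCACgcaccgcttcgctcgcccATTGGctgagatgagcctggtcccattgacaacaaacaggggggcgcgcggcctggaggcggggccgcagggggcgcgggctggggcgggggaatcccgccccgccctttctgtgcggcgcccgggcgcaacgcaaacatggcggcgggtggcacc
The sterol core began, counted in bases from the start site, at -115 in IDI1, at -208 in INSIG1, at -132 in SREBF2 and at 13 in SC5D. Of the 25 members with a window, 4 held the core (16%), against 7.05% of 27305 genes, 18 held CCAAT (72%, against 39.7%) and 21 held the GC box GGGCGG (84%, against 48.3%), counting both strands. In KO1 the 4 genes stood at -1.96 (IDI1), -1.69 (INSIG1), -0.61 (SC5D) and -0.32 (SREBF2, not called). HMGCS1, MVK, FDPS, LSS, MSMO1, HSD17B7, EBP, DHCR7, MBTPS1, MBTPS2 and STARD4 fell in KO1 with no match to these 8 letters in their windows. That says nothing of sites elsewhere. A match describes letters and was not tested for binding.

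Among the enzymes from acetyl-CoA to the isoprenoid diphosphates, 4 of 8 fell in KO1 (HMGCS1, MVK, IDI1 and FDPS) and PMVK rose. HMGCS1 (chr5:43289395-43313512, GRCh38), the cytosolic HMG-CoA synthase that feeds the mevalonate pathway, stood at 35.2, 36.4 and 30.8 FPKM in KO2, at 10.2, 10.1 and 8.78 FPKM in KO1, against 45.8, 41.7 and 31.3 FPKM in Vector. All KO1 libraries lay far below the rest, and KO2 overlapped Vector. The difference was -1.91 ± 0.15 (SE, n = 3 libraries per group) in KO1 against Vector (limma adjusted p = 1.77e-05). In KO2 against Vector it was -0.19, with a 95% interval of -0.52 to 0.13 and a limma adjusted p of 0.357. IDI1 (chr10:1039152-1049170), which interconverts the isopentenyl and dimethylallyl diphosphates from which all isoprenoids are built, stood at 22.8, 25.2 and 18.3 FPKM in KO2, at 8.73, 7.73 and 9.16 FPKM in KO1, against 45.4, 38.8 and 26.7 FPKM in Vector. The 3 groups did not overlap at any point, with KO2 between KO1 and Vector. IDI1 fell by 1.96 ± 0.19 in KO1 (limma adjusted p = 8.09e-05) and by 0.7 in KO2 (limma adjusted p = 0.0245). The KO2 call was lost when the median of its neighbours within 5 Mb was subtracted (-0.43, limma adjusted p = 0.114).

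FDPS (chr1:155308748-155320666), which makes farnesyl diphosphate, the branch point to sterols, prenylated proteins, dolichol and ubiquinone, fell in both clones. It stood at 26.2, 25.1 and 19.8 FPKM in KO2, at 21.2, 19.3 and 19.4 FPKM in KO1, against 41, 35.4 and 43.6 FPKM in Vector. The 2 clones overlapped each other and lay wholly below Vector. The differences from Vector were -0.74 in KO2 (limma adjusted p = 0.00306) and -0.96 in KO1 (limma adjusted p = 0.000537), and the difference between the clones, 0.23 with a 95% interval of -0.06 to 0.52, was called only under some alternatives (0.35 without KO2 replicate 3, limma adjusted p = 0.0471). MVK, mevalonate kinase, moved in opposite directions. It stood at 4.48, 4.31 and 4.77 FPKM in KO2, at 2.08, 1.91 and 1.55 FPKM in KO1, against 2.89, 2.63 and 3.95 FPKM in Vector, so the groups did not overlap and Vector lay between the clones. MVK rose by 0.42 in KO2 (limma adjusted p = 0.0421) and fell by 0.54 in KO1 (limma adjusted p = 0.0134). The KO1 call was lost without KO1 replicate 3 (-0.46, limma adjusted p = 0.0563) and after subtracting the neighbours' median (-0.29, limma adjusted p = 0.156), and the KO2 call was lost without any 1 of the 8 libraries other than Vector replicate 3 (0.33 to 0.45, limma adjusted p = 0.0531 to 0.139).

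PMVK, phosphomevalonate kinase, was the 1 member that rose in KO1 (0.65, limma adjusted p = 0.042). Its mean was 12.6 ± 1.98 FPKM in KO2, 13.3 ± 1.04 FPKM in KO1 and 8.4 ± 3.24 FPKM in Vector (SD, n = 3 each), and Vector replicate 3, at 12.1 FPKM, lay close to the KO1 libraries, whose lowest was 12.6 FPKM. The KO1 call was kept only without Vector replicate 3 or without KO2 replicate 3; the other 7 omissions ended it (0.47 to 0.69, limma adjusted p = 0.0523 to 0.14). In KO2 the PMVK difference was 0.57 (limma adjusted p = 0.0775), and 0.84 without Vector replicate 3 (limma adjusted p = 0.0023). MVD, mevalonate diphosphate decarboxylase, had a difference of -0.64 in KO1 that was not called (limma adjusted p = 0.0538), although its KO1 libraries (9.98 to 12.2 FPKM) lay below the Vector libraries (12.9 to 25.6 FPKM). The MVD difference was -0.83 without Vector replicate 2, and then called (limma adjusted p = 0.0261), but -0.37 without Vector replicate 3, the library at 25.6 FPKM (limma adjusted p = 0.081). With KO2 replicate 3 left out as well, MVD again stood at -0.37 and was called (limma adjusted p = 0.0325). In all, 8 of 20 alternatives called the fall of MVD in KO1. GGPS1, which makes geranylgeranyl diphosphate for protein prenylation, was not called in KO1 (-0.17, limma adjusted p = 0.539), but was called without Vector replicate 3 (-0.4, limma adjusted p = 0.0493). ACAT2, the cytosolic acetoacetyl-CoA thiolase at the entry of the pathway, differed by 0 in KO2 and 0.05 in KO1 from Vector and was called in no comparison.

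All 3 enzymes from farnesyl diphosphate to lanosterol fell in KO1, and 0 of 3 were called in KO2 by limma, also at an unadjusted p under 0.05 and by limma-voom on recovered reads. FDFT1, squalene synthase, is the committed step to sterols. It stood at 47.2, 45.6 and 43.7 FPKM in KO2, at 33.2, 30 and 28.4 FPKM in KO1, against 52.3, 45.3 and 45 FPKM in Vector, and fell in KO1 by 0.62 ± 0.1 (limma adjusted p = 0.00185). SQLE, squalene epoxidase, a rate-controlling oxygenase of the pathway, stood at 41.2, 44.5 and 46.7 FPKM in KO2, at 20.4, 18.9 and 19 FPKM in KO1, against 53.2, 47.2 and 45.3 FPKM in Vector. KO1 libraries of both genes lay below all others, and KO2 overlapped Vector. SQLE fell in KO1 by 1.28 ± 0.1 (limma adjusted p = 2.14e-05). Genes within 5 Mb of SQLE had a median of -0.36 in the same comparison, and with that median subtracted SQLE stood at -0.91 and was still called. LSS, the cyclase that closes the sterol rings to give lanosterol, stood at 25.9, 24.1 and 21.5 FPKM in KO2, at 10.8, 10.6 and 9.68 FPKM in KO1, against 19.1, 20.2 and 31.8 FPKM in Vector. It fell in KO1 by 1.09 ± 0.18 (limma adjusted p = 0.00152), with Vector replicate 3 high among the Vector libraries. For KO2 against Vector, the 95% intervals were -0.29 to 0.18 for FDFT1, -0.36 to 0.09 for SQLE and -0.36 to 0.44 for LSS. With Vector replicate 3 and KO2 replicate 3 both left out, LSS was called as higher in KO2 (0.33, limma adjusted p = 0.00777). Library weights gave a called rise too (0.26). These were the only 2 of 20 alternatives that called LSS in KO2. With a GC and length trend removed it stood at -0.12 (limma adjusted p = 0.272).

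**Figure D2:**
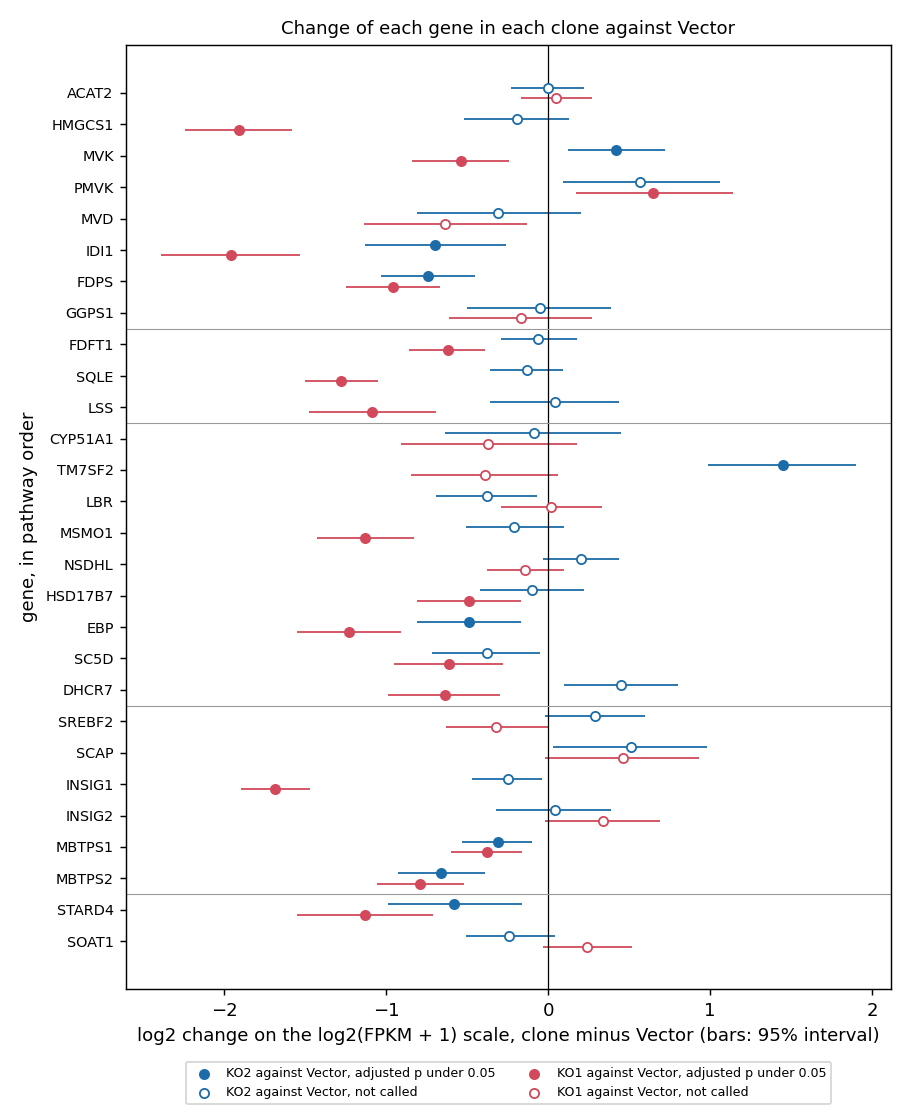
Points give the log2 change of each gene in KO2 and in KO1 against Vector, with 95% intervals as bars, and filled points passed a limma adjusted p of 0.05. KO1 points of the squalene enzymes, HMGCS1, IDI1, EBP, MSMO1, INSIG1 and STARD4 lie left of their KO2 points, while FDPS, MBTPS1 and MBTPS2 lie to the left of 0 in both clones with overlapping intervals.

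From lanosterol to cholesterol, 5 of 9 enzymes fell in KO1 (MSMO1, HSD17B7, EBP, SC5D and DHCR7), and in KO2 EBP fell and TM7SF2 rose. MSMO1, an oxidase that removes methyl groups from lanosterol derivatives, stood at 24.3, 24.7 and 21.1 FPKM in KO2, at 11.8, 11.5 and 12.2 FPKM in KO1, against 30.8, 29.3 and 21.9 FPKM in Vector. Its KO1 libraries lay below all others, and its KO2 libraries overlapped Vector. It fell by 1.13 ± 0.13 in KO1 (limma adjusted p = 0.000273), whereas the KO2 difference was -0.21 (limma adjusted p = 0.29). EBP, a sterol isomerase on the X chromosome (chrX:48521158-48528716), stood at 8.18, 9.43 and 7.61 FPKM in KO2, at 5.59, 4.24 and 4.18 FPKM in KO1, against 12.4, 10.4 and 14 FPKM in Vector, with no overlap between any of the groups. EBP fell by 1.23 ± 0.14 in KO1 (limma adjusted p = 0.000227) and by 0.49 in KO2 (limma adjusted p = 0.0299). Its neighbours within 5 Mb had medians of -0.37 in KO2 and -0.41 in KO1. After these were subtracted, the KO2 value was -0.12 and no longer called (limma adjusted p = 0.428), and the KO1 value was still called.

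DHCR7, the last reductase before cholesterol in one branch of the pathway, separated the clones. It stood at 39.2, 35.8 and 36.7 FPKM in KO2, at 17.5, 16.7 and 16.4 FPKM in KO1, against 24.1, 22.7 and 35.6 FPKM in Vector, so that Vector replicate 3 almost reached KO2. DHCR7 fell by 0.64 ± 0.16 in KO1 (limma adjusted p = 0.0117). The KO2 difference of 0.45 was not called (limma adjusted p = 0.0561), and without Vector replicate 3 it was 0.65 (limma adjusted p = 0.000367). SC5D, a sterol desaturase, had 4.98, 5.39 and 4.65 FPKM in KO2, 4.3, 4.08 and 3.95 FPKM in KO1 and 8.34, 7.36 and 5.13 FPKM in Vector, and fell in KO1 by 0.61 (limma adjusted p = 0.0116). With the median of its neighbours subtracted, that call was lost (-0.47, limma adjusted p = 0.0599). HSD17B7, a sterol ketoreductase, fell in KO1 by 0.49 (limma adjusted p = 0.0252), a call that was lost without Vector replicate 1, Vector replicate 2 or any 1 KO1 library (limma adjusted p = 0.0675 to 0.0923).

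TM7SF2 and LBR both encode sterol reductases that act on the same double bond, and they behaved differently. TM7SF2 (chr11:65111845-65116384) stood at 36.5, 32.7 and 36.8 FPKM in KO2, at 9.65, 9.02 and 8.73 FPKM in KO1, against 10.7, 9.41 and 18.5 FPKM in Vector. Every KO2 library was well above every other library. TM7SF2 rose in KO2 by 1.45 ± 0.2 (limma adjusted p = 0.000936), where its neighbours had a median of 0.32, and in KO1 the difference was -0.39 (limma adjusted p = 0.164). The KO1 difference of TM7SF2 was -0.12 without Vector replicate 3, and it was a called fall with neighbours' medians subtracted (-0.64, limma adjusted p = 0.00486) or with a GC and length trend removed (-0.57, limma adjusted p = 0.00267). LBR, which is also a receptor for lamin B, stood at 9.47, 9.16 and 8.6 FPKM in KO2, at 13.3, 11.3 and 12.3 FPKM in KO1, against 14.4, 12.7 and 9.64 FPKM in Vector. No LBR comparison was called, with differences of -0.38 in KO2 (limma adjusted p = 0.07) and 0.02 in KO1. Without Vector replicate 3, the KO2 difference was -0.53 and called (limma adjusted p = 0.00318). NSDHL, an X-linked sterol dehydrogenase, was called against Vector in neither clone (0.2 in KO2 and -0.14 in KO1). CYP51A1, lanosterol demethylase and the member with the lowest level, averaged 2.13 ± 0.475 FPKM in KO2, 1.57 ± 0.0905 FPKM in KO1 and 2.47 ± 1.36 FPKM in Vector (SD, n = 3 each) and was not called. Of its exon bases, 79.4% also belong to another annotated gene, listed at 0 in all 9 libraries, so its level is uncertain.

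Of the 6 SREBP2 control genes, MBTPS1 and MBTPS2 fell in KO2, and these genes and INSIG1 fell in KO1. INSIG1 (chr7:155297776-155310235) stood at 35, 35.6 and 32.8 FPKM in KO2, at 12.2, 12.2 and 11.9 FPKM in KO1, against 45.4, 40.2 and 38.5 FPKM in Vector. KO1 lay below all other libraries, and KO2 lay between KO1 and Vector without overlap. INSIG1 fell by 1.69 ± 0.1 in KO1 (limma adjusted p = 3.23e-06). The KO2 difference was -0.25, with a 95% interval of -0.47 to -0.04 and a limma adjusted p of 0.0753, and it was called without Vector replicate 3 (-0.3, limma adjusted p = 0.0159). INSIG2, the second INSIG protein, stood at 6.59, 5.78 and 4.43 FPKM in KO2, at 6.62, 6.76 and 7.79 FPKM in KO1, against 6.37, 5.58 and 4.34 FPKM in Vector. Every KO1 library was above every Vector library, by little, and INSIG2 was not called (0.34 in KO1, limma adjusted p = 0.13). Per exon length, INSIG1 was the higher of the pair in all groups. Its mean level was 34.5 ± 1.5 FPKM in KO2, 12.1 ± 0.177 FPKM in KO1 and 41.4 ± 3.6 FPKM in Vector (SD, n = 3 each). That of INSIG2 was 5.6 ± 1.09 FPKM in KO2, 7.05 ± 0.641 FPKM in KO1 and 5.43 ± 1.02 FPKM in Vector (SD, n = 3 each).

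SREBF2, the gene of SREBP2, stood at 44.3, 43.2 and 48.2 FPKM in KO2, at 29, 29.5 and 29.3 FPKM in KO1, against 32.9, 32.4 and 46.5 FPKM in Vector. KO1 lay below all other libraries, and Vector replicate 3 lay within the KO2 range, far from the other two Vector libraries. Against Vector, SREBF2 was not called in either clone, with differences of 0.29 in KO2 (limma adjusted p = 0.154) and -0.32 in KO1 (limma adjusted p = 0.107). With Vector replicate 3 and KO2 replicate 3 both left out, the differences were 0.41 in KO2 (limma adjusted p = 0.000408) and -0.15 in KO1 (limma adjusted p = 0.015). With a GC and length trend removed, SREBF2 stood at 0.14 in KO2 (limma adjusted p = 0.137) and at -0.49 in KO1 (limma adjusted p = 0.000515), and with neighbours' medians subtracted at 0.16 and -0.12, neither called. SCAP, the escort of SREBP2, stood at 18.4, 17 and 25.2 FPKM in KO2, at 19.6, 19.6 and 18.4 FPKM in KO1, against 11.8, 11 and 19.7 FPKM in Vector. Replicate 3 was the highest library both in KO2 and in Vector, and both clones overlapped Vector. SCAP was not called (0.51 in KO2, limma adjusted p = 0.105, and 0.46 in KO1, limma adjusted p = 0.125). Without Vector replicate 3 it was called in both clones (0.75, limma adjusted p = 0.00592, in KO2 and 0.7, limma adjusted p = 0.00695, in KO1). With a GC and length trend removed it was called in neither (0.3, limma adjusted p = 0.151, in KO2 and 0.25, limma adjusted p = 0.221, in KO1). In each clone, 3 of 20 alternatives called SCAP.

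The protease genes fell in both clones. MBTPS2, the site-2 protease on the X chromosome (chrX:21839636-21885424), stood at 4.45, 4.7 and 5.33 FPKM in KO2, at 4.24, 4.46 and 4.3 FPKM in KO1, against 8.86, 9.14 and 6.8 FPKM in Vector. The clones overlapped each other and lay below every Vector library. MBTPS2 fell by 0.66 in KO2 (limma adjusted p = 0.00351) and by 0.79 in KO1 (limma adjusted p = 0.00107), and with its neighbours' medians subtracted it stood at -0.32 in KO2 and -0.47 in KO1, still called in both. MBTPS1, the site-1 protease, stood at 18, 18.6 and 15.8 FPKM in KO2, at 16.6, 16.7 and 16.6 FPKM in KO1, against 20.7, 21.7 and 23.4 FPKM in Vector. Both clones were again below Vector with no overlap, by smaller differences of -0.31 in KO2 (limma adjusted p = 0.0376) and -0.38 in KO1 (limma adjusted p = 0.0147). The KO2 call of MBTPS1 was lost without any 1 library other than Vector replicate 3 (-0.36 to -0.25, limma adjusted p = 0.0509 to 0.085) and after subtracting its neighbours' median (-0.07, limma adjusted p = 0.589). The KO1 call was lost without any 1 KO1 library (-0.38, limma adjusted p = 0.0542 to 0.0578).

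Of the remaining members, STARD4 carries cholesterol between membranes and is a SREBP2 target, and SOAT1 esterifies cholesterol for storage. STARD4 stood at 17.5, 19.2 and 13.6 FPKM in KO2, at 10.5, 11.2 and 11.2 FPKM in KO1, against 30.3, 28.3 and 18.7 FPKM in Vector. KO1 lay below all others, and KO2 replicate 2 lay above Vector replicate 3. STARD4 fell by 1.13 ± 0.18 in KO1 (limma adjusted p = 0.00161) and by 0.58 in KO2 (limma adjusted p = 0.0441). The KO2 call held only without Vector replicate 3 or, at the very edge of the threshold, without KO2 replicate 2. The other 7 omissions gave -0.61 to -0.44 (limma adjusted p = 0.0668 to 0.144). SOAT1 averaged 6.14 ± 0.894 FPKM in KO2, 8.92 ± 0.742 FPKM in KO1 and 7.4 ± 0.831 FPKM in Vector (SD, n = 3 each). Neither clone was called against Vector, with -0.24 in KO2 (limma adjusted p = 0.184) and 0.24 in KO1 (limma adjusted p = 0.158).

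**Figure D3:**
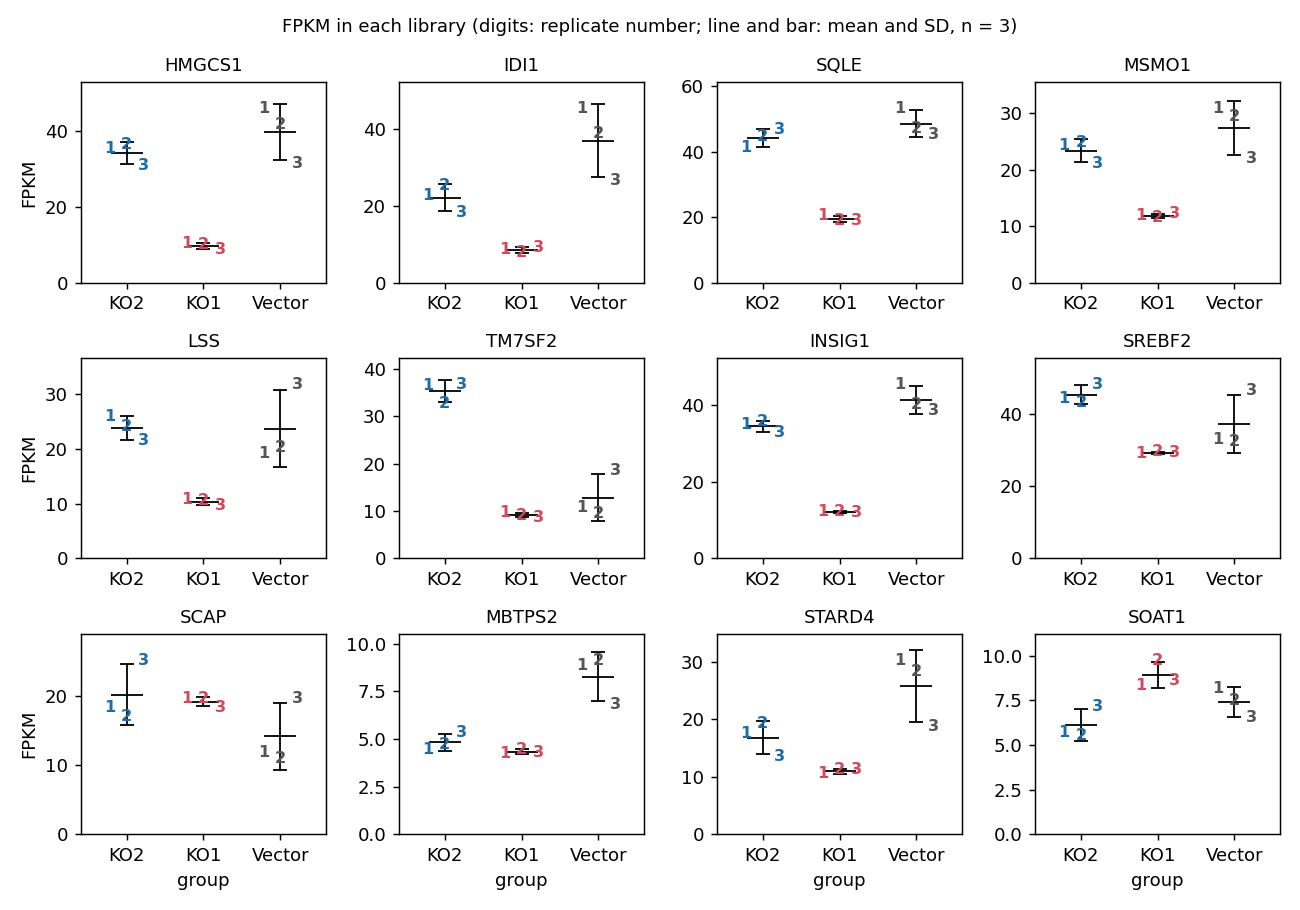
FPKM of 12 members in each library, with digits for the replicate number, a line for the mean and bars for the SD (n = 3 libraries). INSIG1 and SQLE in KO1 lie near 12.1 and 19.4 FPKM, below all other libraries, while Vector replicate 3 lies apart in IDI1, LSS, TM7SF2, SREBF2, SCAP and STARD4.

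The clones differed from each other in 15 of the 28 members, and for 7 of them (DHCR7, FDFT1, HMGCS1, INSIG1, LSS, MSMO1 and SQLE) the call was a fall in KO1, no call in KO2 against Vector and a higher level in KO2 than in KO1. EBP, IDI1 and STARD4 fell in both clones and were higher in KO2 than in KO1, so the fall was smaller in KO2. FDPS, MBTPS1 and MBTPS2 fell in both with no called difference between clones with all libraries. KO2 exceeded KO1 by 1.84 for TM7SF2 (limma adjusted p = 0.000217), by 1.72 for HMGCS1 (limma adjusted p = 5.03e-05) and by 1.43 for INSIG1 (limma adjusted p = 1.24e-05). SREBF2 itself was 0.61 higher in KO2 (limma adjusted p = 0.00993), with all KO2 libraries above all KO1 libraries. With its neighbours' median of 0.32 subtracted, the SREBF2 difference was 0.28 and not called (limma adjusted p = 0.0768). NSDHL was higher in KO2 by 0.34 (limma adjusted p = 0.0339), with 11.6, 12.2 and 10.6 FPKM in KO2 and 9.36, 8.63 and 8.39 FPKM in KO1. SOAT1 was the 1 member lower in KO2, with a difference of -0.48 (limma adjusted p = 0.0168). The calls of NSDHL, STARD4 and SOAT1 were each lost on leaving out single libraries. NSDHL lost it without any 1 KO1 library, KO2 replicate 1 or KO2 replicate 2 (limma adjusted p = 0.0647 to 0.118). STARD4 lost it without Vector replicate 2, any 1 KO1 library, KO2 replicate 1 or KO2 replicate 2 (limma adjusted p = 0.0575 to 0.15), and SOAT1 without KO1 replicate 2, KO2 replicate 1 or KO2 replicate 2 (limma adjusted p = 0.0588 to 0.0747).

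The order of the members by level also differed between groups. In Vector the highest means were those of SQLE (48.5 ± 4.11 FPKM), FDFT1 (47.5 ± 4.16 FPKM), INSIG1 (41.4 ± 3.6 FPKM), FDPS (40 ± 4.18 FPKM) and HMGCS1 (39.6 ± 7.49 FPKM; SD, n = 3 each), neighbours that do not separate beyond their spread. INSIG1 ranked 6 in KO2, 11 in KO1 and 3 in Vector, HMGCS1 ranked 7 in KO2, 16 in KO1 and 5 in Vector, and IDI1 ranked 11 in KO2, 20 in KO1 and 7 in Vector. TM7SF2 ranked 5 in KO2, 17 in KO1 and 16 in Vector. CYP51A1 was the lowest member in each group, though its level is uncertain because most of its exon bases also belong to another annotated gene. FPKM is a level per exon length, so these ranks compare genes per length of transcript.

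The KO2 comparison depended more on single libraries than the KO1 comparison did. Calls in KO2 against Vector numbered 8 with all libraries and 16 (6 rose, 10 fell) without Vector replicate 3. They numbered 3 without Vector replicate 1, KO2 replicate 1 or KO2 replicate 3. Calls over all 16426 genes moved too, from 2115 higher and 2471 lower to 3088 and 3443 without Vector replicate 3. They were 1464 and 1739 without Vector replicate 1, 1582 and 1888 without KO2 replicate 1, and 2060 and 2363 without KO2 replicate 3. FDPS, MBTPS2 and TM7SF2 kept their KO2 call under each of the 20 alternative settings. IDI1 lost it without Vector replicate 1 (-0.53, limma adjusted p = 0.0831), Vector replicate 2, KO2 replicate 1 or KO2 replicate 3. EBP lost it without Vector replicate 1, Vector replicate 3 (-0.4, limma adjusted p = 0.0545), KO2 replicate 1 or KO2 replicate 3. HMGCS1, MSMO1 and SC5D, not called in KO2 with all libraries, were called as lower without Vector replicate 3 (-0.35, -0.35 and -0.56). SREBF2 was then called as higher (0.46, limma adjusted p = 0.0017). In KO1 against Vector, 12 members kept their call under all 20 alternatives (DHCR7, EBP, FDFT1, FDPS, HMGCS1, IDI1, INSIG1, LSS, MBTPS2, MSMO1, SQLE and STARD4). Between the clones 11 did (DHCR7, EBP, FDFT1, HMGCS1, IDI1, INSIG1, LSS, MSMO1, MVK, SQLE and TM7SF2).

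The deviation of Vector replicate 3 followed base composition. Relative to the other two Vector libraries, its members ran from -0.69 (GGPS1) to 0.89 (CYP51A1), with 9 above 0.3 and 10 below -0.3. The deviation correlated with the GC content of the longest transcript at r = 0.85 over the 28 members and 0.72 over all 16426 genes, a description across genes, which are not independent replicates. In KO2 replicate 3, r was 0.18 over the members and -0.26 over all genes, with 3 members above 0.3 and 8 below -0.3. Member transcripts span 34.24% GC (STARD4) to 64.18% GC (TM7SF2). The change itself correlated with GC content over the members at r = 0.6 in KO2 against Vector, 0.2 in KO1 against Vector and 0.23 in KO2 against KO1, and over all genes at 0.17, 0.18 and -0.03. The part of GC content in the KO2 changes was tested only by removing a GC and length trend. Then 14 members were called, 5 of them higher, beside 8 called, 2 of them higher, without that step. Calls over all genes grew as well, to 3307 higher and 3331 lower, beside 2115 and 2471 without that step.

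**Figure D4:**
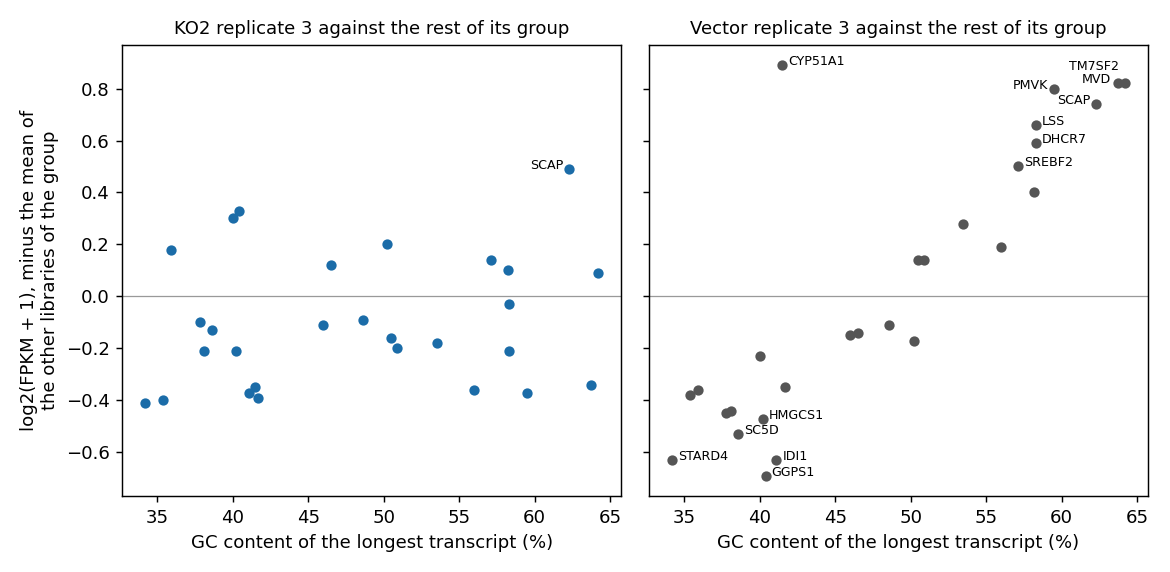
Each point is 1 member gene, with the GC content of its longest transcript on the x axis and, on the y axis, the log2(FPKM + 1) of replicate 3 minus the mean of the other libraries of its group, for KO2 (left) and Vector (right). In Vector the points climb with GC content (r = 0.85) apart from CYP51A1, and in KO2 they show little slope (r = 0.18).

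Genes next to the pathway were read as 3 further lists. Of 13 genes of the isoprenoid branches (dolichol, ubiquinone and protein prenylation), 5 fell and 0 rose in KO2 by limma (1 rose by limma-voom, and 1 at an unadjusted p under 0.05), where 15% and 12.9% of all genes did. In KO1, 3 fell and 1 rose, where 16.7% and 17.4% of all genes did, so the share called was near that of all genes. Their medians were -0.14 in KO2 and -0.16 in KO1. COQ2, the prenyltransferase of ubiquinone synthesis, stood at 6.69, 6.66 and 7.28 FPKM in KO2, at 4.95, 4.37 and 4.93 FPKM in KO1, against 10.5, 9.69 and 8.08 FPKM in Vector. It fell by 0.4 in KO2 (limma adjusted p = 0.0247) and by 0.85 in KO1 (limma adjusted p = 0.000412), with no overlap between the groups. Of 12 genes that bind or degrade the sterol sensors, 1 rose and 1 fell in each clone, where 27.9% of all genes were called in KO2 and 34.1% in KO1. The rise in KO2 was not called by limma-voom, which gave 0 higher and 1 lower. ERLIN1, a membrane protein of the endoplasmic reticulum that takes part in degrading sterol-regulated proteins, fell in KO2 by 0.81 (limma adjusted p = 0.00211), with 5.94, 6.48 and 4.39 FPKM in KO2, 8.61, 8.88 and 8.75 FPKM in KO1 and 11.1, 11 and 9.3 FPKM in Vector. Of 8 genes of electron donors and other partners of the sterol enzymes, 0 were called in KO2 by limma. The count was also 0 at an unadjusted p under 0.05 and by limma-voom, and ERG28 fell in KO1. ERG28, known in yeast as a scaffold of the sterol demethylation enzymes, stood at 20.6, 21 and 17.7 FPKM in KO2, at 11, 10.5 and 9.55 FPKM in KO1, against 24.6, 23 and 18.9 FPKM in Vector. It fell by 1.02 in KO1 (limma adjusted p = 0.000291), and was 0.87 higher in KO2 than in KO1 (limma adjusted p = 0.000871).

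Some levels are uncertain because genes share sequence. By GENCODE 29, 13 of the 28 members share exon bases with another annotated gene, and the strand setting of the counting is not given, so sense and antisense reads cannot be told apart. GGPS1 shares 37.3% of its exon bases with TBCE, and FDPS shares 18.6% with RUSC1-AS1 and has 8 named pseudogenes. ACAT2 shares 9.23% with TCP1 on the opposite strand (96.7 FPKM on average). On that strand it also shares 26.5% with SOD2 (0.031 FPKM) and 33.9% with SOD2-OT1 (0.0113 FPKM). For HMGCS1 and IDI1 the antisense partners were low, with 15% of HMGCS1 exon bases in a gene at 0.302 FPKM and 14.8% of IDI1 exon bases in IDI2-AS1 at 0.165 FPKM on average. INSIG1, SQLE, EBP and MSMO1, which all fell in KO1, share no exon bases with another annotated gene.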

How the data were processed

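Total RNA from 9 H1299 libraries was sequenced on an Illumina NovaSeq instrument after NEBNext Ultra preparation, per the labels' protocols. The authors deposited 1 table of FPKM, for which the submitters' processing notes name the build hg38 and the tools featureCounts 1.5.0-p3, HISAT2 2.0.5 and CASAVA 1.6. Their order, options, strand setting and annotation were not given in the sources used here. GENCODE 29 held every gene identifier, and multiplying FPKM by its exon lengths gave whole reads for 100% of values within 0.02 reads, which gave the depth. The library sizes that fit these whole reads stood in a ratio of 1 to median-of-ratios factors in each library, so the deposited values carry that scaling.

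After a log2(FPKM + 1) transform, genes averaging 0.5 FPKM or more (16426, all 28 members among them) were fitted with limma 3.58.1 (R 4.3.3, trended empirical Bayes) on all 9 libraries with group as the only term. Every adjusted p is Benjamini-Hochberg over all fitted genes, and a gene was called under 0.05. The code was tested on simulated data. No label states separate cultures for the libraries of 1 group, so p-values measure the spread among these libraries alone, and that spread may be technical. Depth was nearly equal between libraries, and the lowest members carry the fewest reads and are the least precise.

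The members and lists were chosen with earlier results of these data known. Values in all libraries were given for members called against Vector with a change of at least 0.8 in 1 comparison and for all SREBP2 control genes; other libraries' values, such as those of SC5D, NSDHL and LBR, were added after seeing them. Of other pathway genes, those called at 0.8 or more were named. Promoters were those of up to 3 members with the sterol core that moved most in KO1 and 1 that moved least. Neighbours are fitted genes within 5 Mb of a member. Alternatives were another pseudocount (0.1 FPKM), a minimum of 1 FPKM or none, equal summed FPKM, only the compared libraries, the replicate number as a block, library weights, limma-voom on recovered reads, neighbour medians subtracted, single libraries left out, both replicate 3 libraries that stood apart left out, and, chosen after seeing the data, a GC and length trend removed.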

Additional observations from a re-analysis of the deposited data

Results flagged for a closer look

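The results in this paragraph are those where the clones, set against the same Vector libraries, differed in a direct limma test of KO2 against KO1 at an adjusted p under 0.05. Among the enzymes up to the isoprenoid diphosphates, KO2 minus KO1 was 1.72 for HMGCS1, 0.96 for MVK and 1.27 for IDI1. For the squalene enzymes it was 0.56 for FDFT1, 1.14 for SQLE and 1.13 for LSS. For the enzymes after lanosterol it was 1.84 for TM7SF2, 0.92 for MSMO1, 0.34 for NSDHL, 0.74 for EBP and 1.1 for DHCR7. For the control genes it was 0.61 for SREBF2 and 1.43 for INSIG1, and for the sterol carrier STARD4 it was 0.55. SOAT1 was the exception in sign, at -0.48. The clones also differ in BCKDK itself, by -0.95, and in KRT8, by -2.81, and the part of either in these differences was not tested.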

How the results depend on the processing

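Of 1680 recomputed gene values, 1434 kept their direction and side of the threshold, 102 gained a call, 93 lost one and 51 changed sign. The 40 called gene results changed sign under none of the 20 alternatives, and 26 of them never lost their call. Low read numbers limit the lowest members, CYP51A1 above all (81 to 166 reads outside Vector replicate 3). Of its exon bases, 79.4% also belong to another annotated gene, and the part of this in its low read number was not tested.

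The number of members called in KO1 against Vector stayed within 1.5 times its value of 17. It was 13 to 19 when single libraries were left out. The 13 came without KO1 replicate 3, where 2022 of all genes were called as higher and 1982 as lower. The 19 came without Vector replicate 3, where 3819 and 3548 of all genes were. In KO2 against Vector the 8 calls became 4 with no filter on low values, 3 with only the libraries compared, 21 with library weights, 20 with Vector replicate 3 and KO2 replicate 3 both left out, 14 with the GC and length trend removed (chosen after seeing the data), and 3 to 16 when single libraries were left out. Calls over all 16426 genes moved too. In KO2 against Vector 2115 were higher and 2471 lower in the main fit. Library weights gave 5024 and 5037, leaving both libraries out 3961 and 4177, and removing the trend 3307 and 3331. Using only the libraries compared gave 1350 and 1613, and no filter gave 2165 and 2582 from a larger set of genes. In KO2 against KO1 the 15 calls became 24 with library weights and 12 to 18 when single libraries were left out. Over all genes, weights there gave 4551 higher and 5213 lower, beside 2386 and 2693 in the main fit. The causes were not tested.

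Same-numbered libraries did not deviate together (correlations of -0.2 to 0.14). These values cannot decide whether the numbers pair the libraries, because libraries that stood apart in Vector and KO2 can mask a smaller shared deviation. With the replicate block, 16 members were called in KO1 against Vector, 5 in KO2 against Vector and 14 in KO2 against KO1. Over all genes the block gave 2484 higher and 2427 lower in KO1 against Vector. It gave 1804 and 2149 in KO2 against Vector, and 2093 and 2335 in KO2 against KO1.

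The values that changed sign were all uncalled with all libraries, and the cause was not tested. In KO1 against Vector, ACAT2 was -0.04 with equal summed FPKM and -0.01 with both libraries left out; CYP51A1 was 0.04 with library weights and 0.20 with neighbour medians subtracted; LBR was -0.07 with equal summed FPKM, -0.10 with weights, -0.17 with neighbours subtracted and -0.13 with both left out. In KO2 against Vector, ACAT2 was 0.02 with equal summed FPKM, 0.16 with neighbours subtracted and 0.05 with the GC trend removed. MVD was 0.09 with weights and 0.08 with both left out, and GGPS1 was 0.02 with neighbours subtracted and 0.13 with the GC trend removed. LSS was -0.04 and -0.12 under these last settings. CYP51A1 was 0.48 with weights, 0.22 with neighbours subtracted, 0.32 with both left out and 0.09 with the GC trend removed, where HSD17B7 was 0.04. In KO2 against KO1, ACAT2 was 0.06 with equal summed FPKM, 0.10 with neighbours subtracted and 0.03 with the GC trend removed. PMVK was 0.02 with equal summed FPKM, 0.03 with weights, 0.09 with neighbours subtracted and 0.04 with both left out, and SCAP was -0.13 with weights and -0.11 with both left out.

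Leaving out single libraries gave these ranges for values that changed sign. In KO1 against Vector they were -0.01 to 0.1 for ACAT2, -0.4 to 0.01 for GGPS1 and -0.13 to 0.14 for LBR. In KO2 against Vector they were -0.07 to 0.05 for ACAT2, -0.28 to 0.13 for GGPS1, -0.1 to 0.01 for FDFT1, -0.09 to 0.26 for LSS, -0.34 to 0.21 for CYP51A1, -0.22 to 0.03 for HSD17B7 and -0.09 to 0.17 for INSIG2. In KO2 against KO1 they were -0.17 to 0.04 for PMVK and -0.11 to 0.16 for SCAP.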
